A study of Mus musculus with 8 samples.

Results

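Far intergenic tiles are the 1-kb tiles of the mouse genome, on a fixed grid over chromosomes 1 to 19 (mm10), that overlap no annotated gene and whose centre lies more than 50 kb from the nearest transcription start site (TSS) of a protein-coding gene. Tiles with assembly gaps were left out. The rule used annotation alone, with genes of every type from GENCODE M21, and found 802803 members among 2395567 gap-free tiles. In each library the coverage of a tile was divided by the mean tile of that library, and all levels below are on that scale.

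The study profiled SOX9 in the spinal cord of wild-type mice with CUT&Tag, in which antibodies tether a transposase to a chromatin protein so that nearby DNA is cut into fragments for sequencing. Nuclei were sorted from frozen tissue around a contusion 1 day after injury (1 d.p.i.) or from the same level of uninjured cords, on a DNA stain per the labels. Each condition had 1 male (M) and 1 female (F) SOX9 library, with a secondary-only control from each sample of nuclei that received no SOX9 antibody. The 8 libraries thus form 4 groups of 2, and M and F of a condition are different animals that served as the replicates.

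SOX9 is a transcription factor of the high-mobility-group family that binds short DNA words of the type AACAATG and is known in the spinal cord from astrocytes and ependymal cells. Its gene lies beside one of the large gene deserts whose distant enhancers have been studied in cartilage and gonad. DNA far from genes holds many repeats and scattered enhancers that act over long distances. AP-1 factors (JUN and FOS dimers, which bind TGACTCA) are induced by injury and act at many such enhancers. Because the measurement is on bulk nuclei, fewer cells of a type and less signal per cell cannot be told apart.

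The sequences below, in 3 sets, are those the results turn on, all from the mm10 genome of RefSeq, 5′ to 3′ on the plus strand unless stated. The first set holds the member tiles with a SOX pair (ACAAT and ATTGT facing each other, 3 to 5 letters apart) that were highest in their lowest SOX9 library. Capitals mark the pair.
chr3:15112426-15112545: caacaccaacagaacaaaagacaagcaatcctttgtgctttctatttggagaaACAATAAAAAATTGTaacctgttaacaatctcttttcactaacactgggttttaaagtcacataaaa
chr11:113221114-113221233: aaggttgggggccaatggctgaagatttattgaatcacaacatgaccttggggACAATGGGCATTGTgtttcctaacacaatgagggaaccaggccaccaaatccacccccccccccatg
chr13:102600212-102600331: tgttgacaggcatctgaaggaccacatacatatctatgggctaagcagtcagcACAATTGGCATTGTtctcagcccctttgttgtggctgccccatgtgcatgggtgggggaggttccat
The same choice for AP-1 gave the following stretches, with the AP-1 word in capitals.
chr6:3201900-3202019: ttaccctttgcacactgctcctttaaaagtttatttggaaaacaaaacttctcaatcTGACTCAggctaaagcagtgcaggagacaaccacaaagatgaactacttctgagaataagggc
chr12:86801255-86801374: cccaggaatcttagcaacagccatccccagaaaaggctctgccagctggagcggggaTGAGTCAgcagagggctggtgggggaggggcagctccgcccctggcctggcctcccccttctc
chr8:36155376-36155495: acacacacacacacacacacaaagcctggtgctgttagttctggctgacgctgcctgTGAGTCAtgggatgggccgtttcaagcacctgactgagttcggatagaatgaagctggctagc

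The second set holds the 6 member tiles called at 1 d.p.i. by a test over tiles with enough coverage, which they had only through the condition in which they were high. Each is shown as the stretch with the highest summed SOX9 coverage. The first 4 were higher at 1 d.p.i., with a SOX word (in chr6:116986608-116986807 and chr8:126692795-126692994) or an AP-1 word (in chr4:137121801-137122000) in capitals where the stretch holds one.
chr6:116986608-116986807: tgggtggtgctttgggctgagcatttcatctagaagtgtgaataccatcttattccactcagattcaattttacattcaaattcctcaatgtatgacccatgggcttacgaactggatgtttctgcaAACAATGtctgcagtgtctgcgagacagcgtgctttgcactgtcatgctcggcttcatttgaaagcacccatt
chr4:137121801-137122000: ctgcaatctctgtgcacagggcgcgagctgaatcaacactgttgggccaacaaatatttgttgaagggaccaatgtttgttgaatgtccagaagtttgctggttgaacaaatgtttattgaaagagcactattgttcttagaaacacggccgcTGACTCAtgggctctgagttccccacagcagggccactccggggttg
chr8:126692795-126692994: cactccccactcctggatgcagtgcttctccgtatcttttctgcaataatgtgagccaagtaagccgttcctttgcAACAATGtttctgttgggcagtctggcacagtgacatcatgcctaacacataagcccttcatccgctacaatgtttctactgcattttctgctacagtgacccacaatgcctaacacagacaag
chr6:140197690-140197889: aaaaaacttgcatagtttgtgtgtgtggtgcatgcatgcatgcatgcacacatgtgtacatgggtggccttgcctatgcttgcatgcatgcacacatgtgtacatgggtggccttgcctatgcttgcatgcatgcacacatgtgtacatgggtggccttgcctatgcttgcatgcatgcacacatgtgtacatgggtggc
The stretches that were lower at 1 d.p.i. follow. Like the last of the first 4, both are tandem repeats.
chr8:116560697-116560896: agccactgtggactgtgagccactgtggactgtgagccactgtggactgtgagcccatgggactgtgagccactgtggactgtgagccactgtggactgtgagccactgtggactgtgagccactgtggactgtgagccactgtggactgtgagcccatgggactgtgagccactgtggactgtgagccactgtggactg
chr3:154473105-154473304: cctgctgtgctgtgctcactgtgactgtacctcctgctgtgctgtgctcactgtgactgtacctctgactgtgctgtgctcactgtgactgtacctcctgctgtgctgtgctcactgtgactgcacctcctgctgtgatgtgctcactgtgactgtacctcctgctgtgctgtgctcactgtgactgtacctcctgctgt
The highest tile between Cebpb and Ptpn1, an interval described below, holds an AP-1 word, again in capitals.
chr2:167765284-167765483: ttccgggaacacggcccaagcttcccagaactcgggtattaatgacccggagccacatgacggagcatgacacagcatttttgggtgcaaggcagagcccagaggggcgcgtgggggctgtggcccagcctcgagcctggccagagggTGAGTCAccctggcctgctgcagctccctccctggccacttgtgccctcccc

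The third set holds repeats and a single tile that were high, and a tile of a cloned enhancer that was not. The first sequence is the core shared by the copies of the 4.5S RNA gene between Ezh2 and Pdia4, written on the minus strand (chr6:47655005-47655094), and the second the core of a tandem repeat between Hrh1 and Atg7 (chr6:114511281-114511320). Then follow the stretch of highest coverage in a tile that was high in every library, controls included, and last a stretch of the tile that holds IREN4, an injury-responsive enhancer cloned by the study.
Rn4.5s core: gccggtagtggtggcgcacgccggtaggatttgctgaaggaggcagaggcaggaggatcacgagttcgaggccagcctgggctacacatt
Hrh1 to Atg7 core: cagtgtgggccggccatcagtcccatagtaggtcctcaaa
chr3:5860530-5860729: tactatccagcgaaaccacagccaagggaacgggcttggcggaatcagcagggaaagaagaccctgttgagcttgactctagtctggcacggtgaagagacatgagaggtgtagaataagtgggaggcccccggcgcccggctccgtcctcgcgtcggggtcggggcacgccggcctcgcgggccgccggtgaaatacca
chr16:86094472-86094671: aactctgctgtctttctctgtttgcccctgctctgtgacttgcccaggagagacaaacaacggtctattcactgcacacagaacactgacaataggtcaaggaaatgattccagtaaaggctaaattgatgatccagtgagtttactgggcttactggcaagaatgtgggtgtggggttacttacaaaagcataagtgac

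Before the results, 1 feature of the libraries has to be stated. The SOX9 libraries held 1824332 (uninjured M), 7068156 (uninjured F), 2463775 (1 d.p.i. M) and 2317198 (1 d.p.i. F) fragments on the autosomes, and the controls 10664 to 51460. Of the control fragments that stood alone, so that their ends could be read, 82.7 to 93.7% matched a SOX9 fragment at both ends, against 0.023 to 0.042% after a shift of 1000 bp. In far intergenic tiles the shares were 90.9%, 75.9%, 82.6% and 89.6% in the uninjured M, uninjured F, 1 d.p.i. M and 1 d.p.i. F controls. The shared fragments were spread over all 4 SOX9 libraries, also in the control of the other condition. The controls are therefore given beside the results but are not separate measurements of the background, and the mean level is compared with them with and without the shared fragments. All other control values include those fragments. At their depth 99.02 to 99.80% of member tiles held no control fragment, so a control value of 0 in a single tile says little.

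As a check of the tissue, oligodendrocyte and neuron markers had median levels at their 5′ ends of 7.16 to 10.5 and 3.66 to 8.40 over the SOX9 libraries, and astrocyte markers 2.92 to 4.60. The median over all 20558 protein-coding genes was 2.34 to 3.61, and in the uninjured F library the astrocyte median (3.14) lay below it (3.61). Hepatocyte markers, which the cord should lack, had medians of 0 to 0.966, with Apoa1 at 3.20 to 6.84 above the rest.

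Far intergenic tiles were poorly covered in every library. They made up 33.5% of all tiles and held 17.4% (uninjured M), 11.2% (uninjured F), 13.9% (1 d.p.i. M) and 16.0% (1 d.p.i. F) of the SOX9 coverage. Their mean level was 0.520 and 0.335 in the uninjured libraries and 0.415 and 0.477 at 1 d.p.i., in the order M and F that is kept from here on. Both 1 d.p.i. values lay between the uninjured ones, so the groups overlapped. The difference of 0.0182 between the group means was smaller than the SD of the uninjured pair (0.131, n = 2; SD at 1 d.p.i. 0.0434), with p = 1 in an exact two-sided permutation test, where 2 libraries against 2 cannot go below 0.333. In M the level was 0.105 lower at 1 d.p.i. and in F it was 0.141 higher, and the difference turned to −0.0741 without the uninjured F library and to −0.0125 without the 1 d.p.i. F library.

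The order of the libraries was that of no condition and was reversed at promoters. Tiles with a coding TSS had levels of 4.47, 8.06, 6.17 and 5.14, so that the uninjured F library was the highest at promoters and the lowest far from genes. That library was also the deepest, with 45.5% of member tiles empty against 61.9 to 65.8% in the other SOX9 libraries. The part of depth and of the contrast between promoters and background in the levels of single libraries was not tested, beyond thinning each library to 1824332 fragments.

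The controls had a mean level of 0.390 ± 0.00819 (SD, n = 4) in far intergenic tiles and the SOX9 libraries 0.437 ± 0.0801 (SD, n = 4). The difference of 0.0469 was smaller than the spread of the SOX9 libraries (exact two-sided permutation test, p = 0.314). It was 0.0117 (exact p = 0.743) in tiles with under 50% of their bases in lower case, 0.0807 without the uninjured F library and 0.0192 without the uninjured M library. Without the shared fragments it was 0.0455 (exact p = 0.400). Against the control of the same nuclei the SOX9 libraries differed by 0.124, −0.0556, 0.0201 and 0.0986, higher in 3 of 4 (exact two-sided paired permutation p = 0.375, a test added after seeing the data).

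Deep intronic tiles, which lie inside a gene but equally far from any coding TSS and number 295635, were close to the library mean, at 0.963, 0.927, 0.930 and 0.954. Member tiles were lower by 0.443, 0.592, 0.515 and 0.478 in the same libraries. The mean difference was −0.507 with the same sign in 4 of 4 libraries, and the exact two-sided paired permutation test gave p = 0.13, the smallest that 4 pairs can give. Over all 8 libraries, which are not independent, it was −0.512 with exact p = 0.00781. The member tiles were poorer in GC, with 39.8% against 41.0%, and richer in repeats, with 38.9% against 29.2% of bases in lower case. Reweighting the intronic tiles to the GC content of the member tiles left a difference of −0.402 in the same direction.

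Gene-free tiles within 50 kb of a coding TSS were at 0.973, 0.886, 0.932 and 0.952, like the deep intronic tiles and above the far intergenic ones in every SOX9 library.

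**Figure D1:**
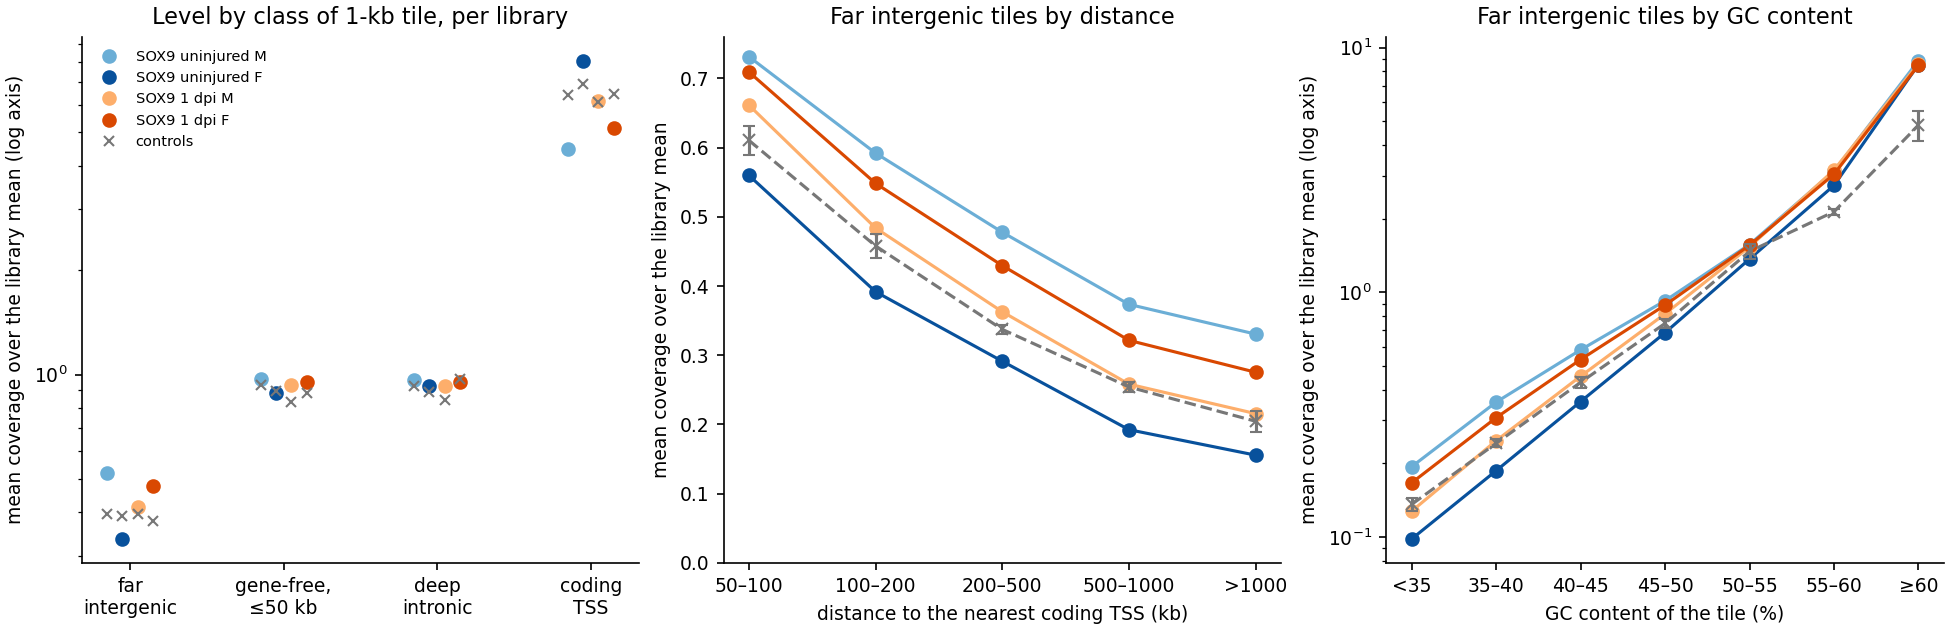
Mean coverage over the library mean for 4 classes of 1-kb tile (left, log axis), for far intergenic tiles by distance to the nearest coding TSS (middle) and by GC content (right, log axis). Circles are single SOX9 libraries and crosses the controls, shown singly on the left and as mean ± SD (n = 4) in the middle and right panels. Levels were lower at greater distance and higher at higher GC content in each SOX9 library, and the uninjured F library was lowest among far intergenic tiles of low GC and highest at coding TSSs.

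Within the far intergenic tiles the level was lower at each step of distance from the nearest coding TSS. It was 0.665 ± 0.0763 (SD, n = 4 SOX9 libraries) in the 155954 tiles at 50 to 100 kb, 0.504 ± 0.0870 at 100 to 200 kb, 0.390 ± 0.0811 at 200 to 500 kb, 0.286 ± 0.0784 at 500 to 1000 kb and 0.244 ± 0.0755 in the 70416 tiles beyond 1000 kb. The order was the same in each of the 4 SOX9 libraries. Tiles over 500 kb away were lower than those at 50 to 100 kb by 0.372, 0.379, 0.417 and 0.403, with a mean of −0.393 (exact two-sided paired permutation test, p = 0.13, the smallest possible). Tiles far from a TSS were also poorer in GC, with 37.5% over 500 kb against 42.1% at 50 to 100 kb. After reweighting the nearer tiles to the GC content of the farther ones, −0.0967 remained, in the same direction in 4 of 4 libraries.

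GC content separated the member tiles more than distance did. Below 35% GC the mean level over the SOX9 libraries was 0.147 ± 0.0422 (SD, n = 4), and in the 605 tiles of at least 60% GC it was 8.61 ± 0.164. The 4 libraries stood at 0.194, 0.0982, 0.128 and 0.167 in the first class and at 8.85, 8.53, 8.59 and 8.47 in the last. The controls spanned less, from 0.136 ± 0.00793 to 4.82 ± 0.667 (SD, n = 4). Of bases in the GC-richest class 80.7% were in lower case, so this class is mostly repeats.

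Tiles made wholly of repeats stood apart. In the 51827 member tiles with all bases in lower case the SOX9 libraries had 0.955, 0.344, 0.600 and 0.726 and the controls 0.214 to 0.314. In the 273713 tiles with under 20% lower case, the SOX9 libraries had 0.559, 0.435, 0.494 and 0.540 and the controls 0.50 to 0.51. The uninjured F library was near the controls in the first class and below them in the second, so the libraries did not share 1 pattern, and no test was made.

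Some member tiles hold a gene in RefSeq that GENCODE M21 does not list, namely 71806 of them, or 8.94%. Their level was 0.614 ± 0.0728 against 0.420 ± 0.0809 (SD, n = 4) in tiles with no RefSeq gene. The 8066 tiles with a RefSeq coding gene had 0.916 ± 0.0601 and the 51855 with a long non-coding RNA gene 0.632 ± 0.0714. The 58 tiles with a tRNA gene had 0.656 ± 0.0817 in the SOX9 libraries.

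The member tiles form 11119 unbroken runs with a median of 34 tiles, and 67.1% of them lie in runs of at least 100. The longest run, of 1254 tiles on chr1:113965001-115219000 between Dsel and Cntnap5a, had levels of 0.356, 0.168, 0.264 and 0.269. Next came 1180 tiles between Ankrd7 and Kcnd2 at 0.348, 0.164, 0.195 and 0.302, and 1092 tiles between Rgs18 and Brinp3 at 0.382, 0.148, 0.267 and 0.305. The run between Cobl and Pom121l12 held 0.306, 0.149, 0.230 and 0.277, and that between the cadherin genes Cdh8 and Cdh11 0.382, 0.184, 0.266 and 0.334. All 5 lay below the mean of the members in every SOX9 library, and 54.7 to 76.7% of their tiles were empty. In these runs the libraries kept the order of all member tiles at their ends, with the uninjured M library highest and the uninjured F library lowest.

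The gene desert between Kcnj2, a potassium channel gene, and Sox9 itself held 1509 member tiles, on chr11:111116001-112663000. Its levels were 0.452, 0.276, 0.353 and 0.372, with controls at 0.0283 to 0.402. The groups overlapped and their means of 0.364 ± 0.124 and 0.362 ± 0.0132 (SD, n = 2) were nearly equal. Only 3 of the 1509 tiles had a sum of at least 12 over the SOX9 libraries, the limit set for testing single tiles. The highest, chr11:111512001-111513000, lies 446.3 kb after Kcnj2 and 1269.7 kb before Sox9 and had 13.4, 17.2, 10.6 and 7.94, with controls of 0, 32.9, 75.8 and 0. Both uninjured libraries lay above both at 1 d.p.i. there, and the change of −0.70 on the log2(value + 0.5) scale did not pass the test (SE 0.61, limma adjusted p = 0.999). From 50 to 250 kb before Sox9 the levels were 0.369, 0.232, 0.303 and 0.403, and from 500 to 1000 kb before it 0.333, 0.210, 0.253 and 0.326. At 250 to 500 kb they were 0.456, 0.241, 0.3585 and 0.337, and in the 661 tiles at 1000 to 2000 kb 0.551, 0.345, 0.431 and 0.411. This last stretch was slightly above the mean of all member tiles in every SOX9 library but 1 d.p.i. F. The other stretches were below that mean in each SOX9 library.

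Few member tiles were high. At 10 times the library mean or more stood 0.0752%, 0.0612%, 0.0771% and 0.0670% of them. The 1 d.p.i. and uninjured values overlapped, and their means differed by 0.00386 percentage points (exact two-sided permutation test, p = 0.667). In all 4 SOX9 libraries at once, 240 tiles reached 10 times the mean, which is 0.0299% of the members, against 0.224% of all gap-free tiles. They lay in 96 intervals between coding genes, of which 70 held a single such tile.

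Many of these 240 tiles lay in tandem arrays on chromosome 6, which were picked out after their values were seen. Between Ezh2, a histone methyltransferase gene, and Pdia4, 61 high tiles sat among 67 members (chr6:47645001-47763000) with mean levels of 68.8, 75.1, 76.3 and 64.4. This interval carries copies of the gene for 4.5S RNA, a small rodent RNA made by RNA polymerase III, which RefSeq annotates at 1 of them as Rn4.5s. The 90-base core printed above occurred 12 times on the minus strand of the chromosome at a median spacing of 4334 bp. The 11 member tiles with a copy had 128.1, 162.4, 146.8 and 127.9, while their controls ranged from 29.9 to 112.2. The 2 conditions overlapped.

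**Figure D2:**
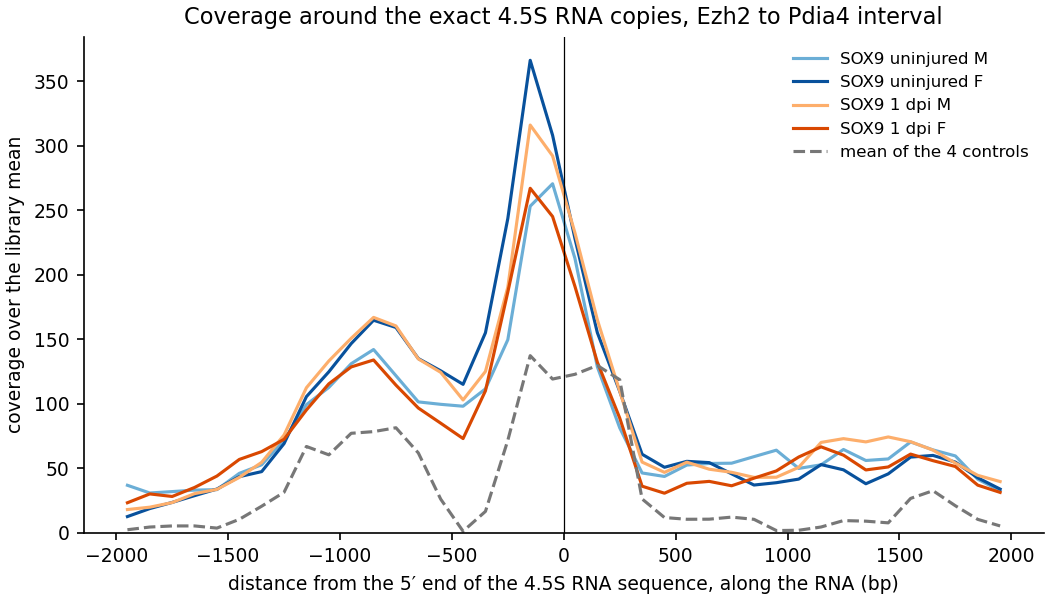
Coverage over the library mean around the exact copies of the 4.5S RNA core between Ezh2 and Pdia4, by distance from the 5′ end of the RNA, with 1 line for each SOX9 library and a dashed line for the mean of the 4 controls. Coverage was highest just upstream of the 5′ end in each SOX9 library, with a lower maximum farther upstream.

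Between Hrh1, a histamine receptor gene, and the autophagy gene Atg7, 40 high tiles sat among 84 members (chr6:114509001-114593000) with mean levels of 18.3, 11.1, 14.7 and 16.0. There the 40-base core recurred 60 times at a median spacing of 2441 bp, and 34 member tiles with a copy had 18.4, 12.5, 16.1 and 18.3. The controls were at 3.13 to 11.1 in these 34 tiles. Each array repeats an identical core, so fragments within a core cannot be assigned to 1 copy with certainty. How alike the rest of the copies is was not measured, and a filter on mapping quality is not given in the sources used here. Both intervals together held 1.47 to 2.22% of the SOX9 coverage in far intergenic tiles. Without them 139 tiles (0.0173% of the members) remained at 10 times the mean in all SOX9 libraries, and the mean level became 0.512, 0.328, 0.407 and 0.470.

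The tile chr3:5860001-5861000 had 254.8, 273.2, 532.5 and 374.7 in the SOX9 libraries and more in the controls, with 644.4, 921.9, 2031.0 and 1115.7. It was the only 1 of the 240 whose lowest control exceeded its highest SOX9 library, and in 56 the mean of the controls exceeded that of the SOX9 libraries. In 77 every control was at 0, and in 12 every control was above 0.

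Away from the arrays, the highest member tiles with a SOX pair lay above the mean of TSS tiles in every SOX9 library. On chr3:15112001-15113000, 226.1 kb after Car2 and 219.8 kb before Gm9733, the SOX9 libraries had 20.1, 29.1, 24.6 and 23.7. On chr11:113221001-113222000, 439.3 kb after Sox9 and 344.3 kb before Slc39a11, they had 23.6, 27.2, 25.4 and 18.4. On chr13:102600001-102601000, between the PI3-kinase gene Pik3r1 and Cd180, they had 8.25, 16.0, 10.9 and 10.6. In each of these tiles 1 control was above 0, at 55.4 to 89.3, and the other controls were at 0. The conditions overlapped in each of these tiles, and limma gave adjusted p = 0.999 to 1.00.

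The highest tiles with an AP-1 word included chr12:86801001-86802000, 67.1 kb after Lrrc74a and 83.3 kb before Irf2bpl, at 32.3, 44.2, 59.8 and 45.4. There both 1 d.p.i. libraries were above both uninjured ones, with a change of 0.46 (log2, SE 0.67) that did not pass the test (limma adjusted p = 0.999). On chr8:36155001-36156000, between Prag1 and Lonrf1, the values were 28.7, 64.3, 49.6 and 45.7. On chr6:3201001-3202000, before Samd9l, the SOX9 libraries had 131.5, 90.8, 291.0 and 416.8 but the controls 161.4, 1302.3, 3360.8 and 694.4.

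To ask which single tiles differed at 1 d.p.i., limma was fitted on log2(level + 0.5) of the 4 SOX9 libraries over all 142098 tiles of the genome with a sum of at least 12. Of the 802803 members only 5951 passed that limit, so most far intergenic tiles could not be tested singly. In the test 4 members were higher and 2 lower at 1 d.p.i. with an adjusted p under 0.05, against 0.0422% higher and 0.00704% lower among all tiles tested. Among the 5951 tested members these are 0.0672% and 0.0336%. At an unadjusted p under 0.05 stood 285 of the 5951 members, beside 5883 of all 142098 tiles, and 195 of the 285 were higher. Without the 1 d.p.i. M library 106 of 276 were higher. The median change was 0.10 (log2) over the tested members and −0.02 over all tiles tested, but −0.05 and 0.08 without the uninjured F library.

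A looser count asks only that the groups do not overlap. Both 1 d.p.i. libraries were above both uninjured ones in 1249 tested members (21%) and below in 725 (12.2%), against 15.4% and 16.6% of all tiles tested. The members had to have coverage to be tested, so these shares describe covered far intergenic tiles and not all of them.

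The tile chr6:116986001-116987000, 269.6 kb after Tmem72 and 182.0 kb before the chemokine gene Cxcl12, had 1.18 and 3.13 in the uninjured libraries and 24.6 and 12.7 at 1 d.p.i. The change was 2.88 (log2, SE 0.63, limma adjusted p = 0.0155). It holds a SOX and an AP-1 word.

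The tile chr4:137121001-137122000, 72.8 kb after Zbtb40 and 156.0 kb before the signalling ligand gene Wnt4, had 1.17, 1.31, 15.8 and 10.6. The change was 2.95 (log2, SE 0.66, limma adjusted p = 0.0222). It holds an AP-1 word.

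The tile chr8:126692001-126693000, 98.5 kb after Irf2bp2 and 253.3 kb before Tomm20, had 0.420, 1.81, 7.90 and 17.5. The change was 3.08 (log2, SE 0.70, limma adjusted p = 0.0262). It holds a SOX word, and the interval after Irf2bp2, a transcriptional repressor gene, returns below.

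The tile chr6:140197001-140198000, between Capza3 and Plekha5, had 0.754, 0.526, 13.7 and 10.3, a change of 3.45 (log2, SE 0.79, limma adjusted p = 0.0278). Its 1 d.p.i. M control stood at 31.9, above every SOX9 library, while all controls of the other 5 called tiles were at 0.

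The tiles that were lower at 1 d.p.i. were chr8:116560001-116561000, between Dynlrb2 and Cdyl2, and chr3:154473001-154474000, between the homeobox gene Lhx8 and Cryz. The first had 16.3, 8.94, 0.750 and 1.25 (log2 change −3.09, SE 0.69, limma adjusted p = 0.0220), and the second 16.1, 8.21, 1.43 and 0.399 (−3.19, SE 0.73, limma adjusted p = 0.0321). All bases of the first and 49.8% of those of the second are in lower case.

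The 4 higher tiles reached the sum of 12 only through their 1 d.p.i. libraries and the 2 lower ones through the uninjured, so each was tested because of the group in which it was high, and the values serve as a description. With no filter limma called 0 members, and 11871 had an unadjusted p under 0.05, of which 4898 were higher at 1 d.p.i. All 6 kept their direction under each of 14 other settings, but the single tiles passed the threshold in 1 to 4 of them, and under 7 of the settings no member was called. The estimate of the spread was borrowed wholly from the trend over all tiles, since limma put the prior degrees of freedom at infinity, and without the trend limma called 0 members and 374 had an unadjusted p under 0.05. Without the uninjured F library, the deepest, 39 members passed, and without the 1 d.p.i. F library 0.

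The tiles with the widest gap between the conditions, chosen on these values and therefore given with no test, had 0 to 1.12 in the libraries of the lower condition. Among those higher at 1 d.p.i. was chr2:167844001-167845000, 155.6 kb after Cebpb, with 0.390 and 0 in the uninjured libraries and 5.30 and 7.09 at 1 d.p.i. On chr15:36735001-36736000, 56.9 kb before Ywhaz, the values were 0.482, 0.341, 8.73 and 6.26, and on chr13:26369001-26370000, a tile wholly in lower case, 0, 0.228, 5.17 and 7.50. Among those lower at 1 d.p.i., chr6:126434001-126435000, between the neurotrophin gene Ntf3 and Kcna5, had 7.94, 4.92, 0 and 0.270, with every control at 0. In the other 3, near Abhd5, Phf14 and the neural adhesion gene Ncam1, uninjured controls reached 26.4 to 140.9.

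Since single tiles held few fragments, the member tiles were also grouped by the coding gene with the nearest TSS, called a neighbourhood here. Of 4654 genes with member tiles, 2424 had at least 50 and were tested with limma on log2(mean level + 0.1), with tile values limited to 20. This grouping was added after the tiles had been looked at. In 7 neighbourhoods the level was higher at 1 d.p.i. (0.289% of those tested) and in 0 lower (0%), and 50 had an unadjusted p under 0.05, of which 45 were higher. This tally depended on 1 library, since without the uninjured F library 7 were called higher and 5 lower, 50 of 191 at an unadjusted p under 0.05 were higher and the median change was −0.22. Both 1 d.p.i. libraries were above both uninjured ones in 10.0% of the neighbourhoods and below in 3.01%, and the median change with all libraries was 0.07 (log2).

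Ptpn1 and Cebpb had the lowest p-values and are neighbours on chromosome 2, each holding 1 side of the interval between them. Cebpb encodes C/EBPβ, a transcription factor induced by inflammation and injury, and Ptpn1 a protein tyrosine phosphatase. The 59 tiles nearest to Ptpn1 had 1.91 and 1.96 in the uninjured libraries and 3.82 and 4.04 at 1 d.p.i., a change of 0.99 (log2, SE 0.12, limma adjusted p = 7.98e-12). The 65 tiles nearest to Cebpb had 2.43, 2.59, 4.72 and 4.42, a change of 0.84 (log2, SE 0.12, limma adjusted p = 5.11e-10).

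The neighbourhood of Zbtb40, a zinc-finger gene, held 57 tiles at 0.735, 0.811, 2.03 and 1.70, a change of 1.17 (log2, SE 0.18, limma adjusted p = 2.16e-07). That of Trib1, a pseudokinase gene that controls the degradation of C/EBP proteins, held 127 tiles at 1.43, 1.17, 2.26 and 2.66, a change of 0.87 (log2, SE 0.15, limma adjusted p = 4.54e-06). In both, each 1 d.p.i. library was above each uninjured one by more than the spread within the groups.

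The neighbourhood of Irf2bp2 held 131 tiles at 3.18, 3.62, 4.52 and 4.95 and had the smallest change of the 7, 0.47 (log2, SE 0.11, limma adjusted p = 0.00799). For 1700020N01Rik, an uncharacterised gene whose interval ends at the stress-induced kinase gene Sgk1, 131 tiles had 1.16, 0.810, 1.73 and 1.60, a change of 0.72 (log2, SE 0.18, limma adjusted p = 0.0229). For Tmem121, 71 tiles had 1.29, 0.810, 1.94 and 1.49, a change of 0.68 (log2, SE 0.18, limma adjusted p = 0.0359).

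The controls of these neighbourhoods were uneven. Both 1 d.p.i. controls were above both uninjured ones for Zbtb40 (0, 0, 0.351 and 0.351) and Tmem121 (0, 0.282, 0.649 and 0.845), and they overlapped for the other 5, with 0.433, 0.339, 2.62 and 0.339 for Ptpn1 and 1.23, 0.911, 1.51 and 0 for Cebpb.

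Ptpn1, Cebpb, Zbtb40 and Trib1 passed under 11 of 14 other settings, Irf2bp2 under 9, Tmem121 under 7 and 1700020N01Rik under 6. In none did the direction change. The p-values again rest on a spread taken wholly from the trend over neighbourhoods. Without the trend limma called 0 neighbourhoods and 12 had an unadjusted p under 0.05. In a limma fit that included the controls it called 0, and 3 had an unadjusted p under 0.05. The count was 61 without the uninjured M library and 12 without the uninjured F library, and 4 without either 1 d.p.i. library. M and F share no animal, and a block for the letter left 5.

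**Figure D3:**
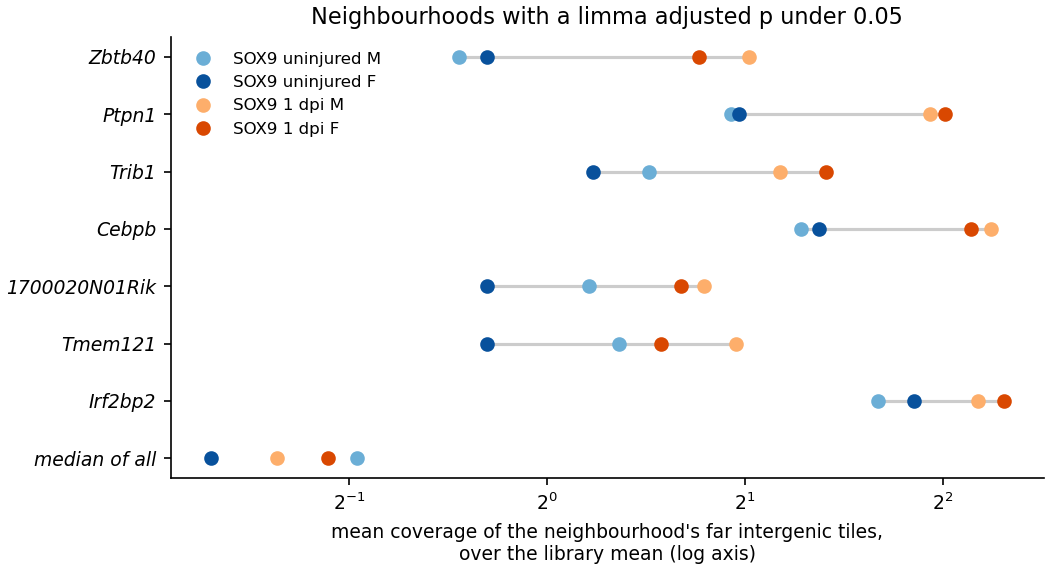
Mean level of the far intergenic tiles nearest to each of 7 genes, over the library mean (log axis), with 1 point for each SOX9 library. The bottom line gives the median of all 2424 neighbourhoods, where the conditions overlap. In each named neighbourhood both 1 d.p.i. libraries lay above both uninjured ones.

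The difference between Cebpb and Ptpn1 ran along the interval rather than at 1 site. Its 124 member tiles (chr2:167739001-167882000) had mean levels of 2.18, 2.29, 4.44 and 4.32, that is 2.24 ± 0.0752 uninjured and 4.38 ± 0.0854 at 1 d.p.i. (SD, n = 2). The controls had 4.62, 1.31, 4.23 and 2.23. In 100 of the 124 the 1 d.p.i. mean was the higher, and the medians over tiles were 1.95, 1.99, 3.41 and 3.49. Of its 59 tiles with a sum of at least 12, both 1 d.p.i. libraries were above both uninjured ones in 34 and below in 1, beside 21% and 12.2% of all tested members. The interval was chosen for its higher level at 1 d.p.i., which fixes much of these counts. The highest tile, chr2:167765001-167766000, lies 76.6 kb after Cebpb and had 5.55, 9.82, 37.9 and 26.0, with 1 control at 141.7 and the others at 0. Its change of 2.01 (log2, SE 0.61) did not pass the test over single tiles (limma adjusted p = 0.450). The interval is rich in GC, with 52.9%.

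**Figure D4:**
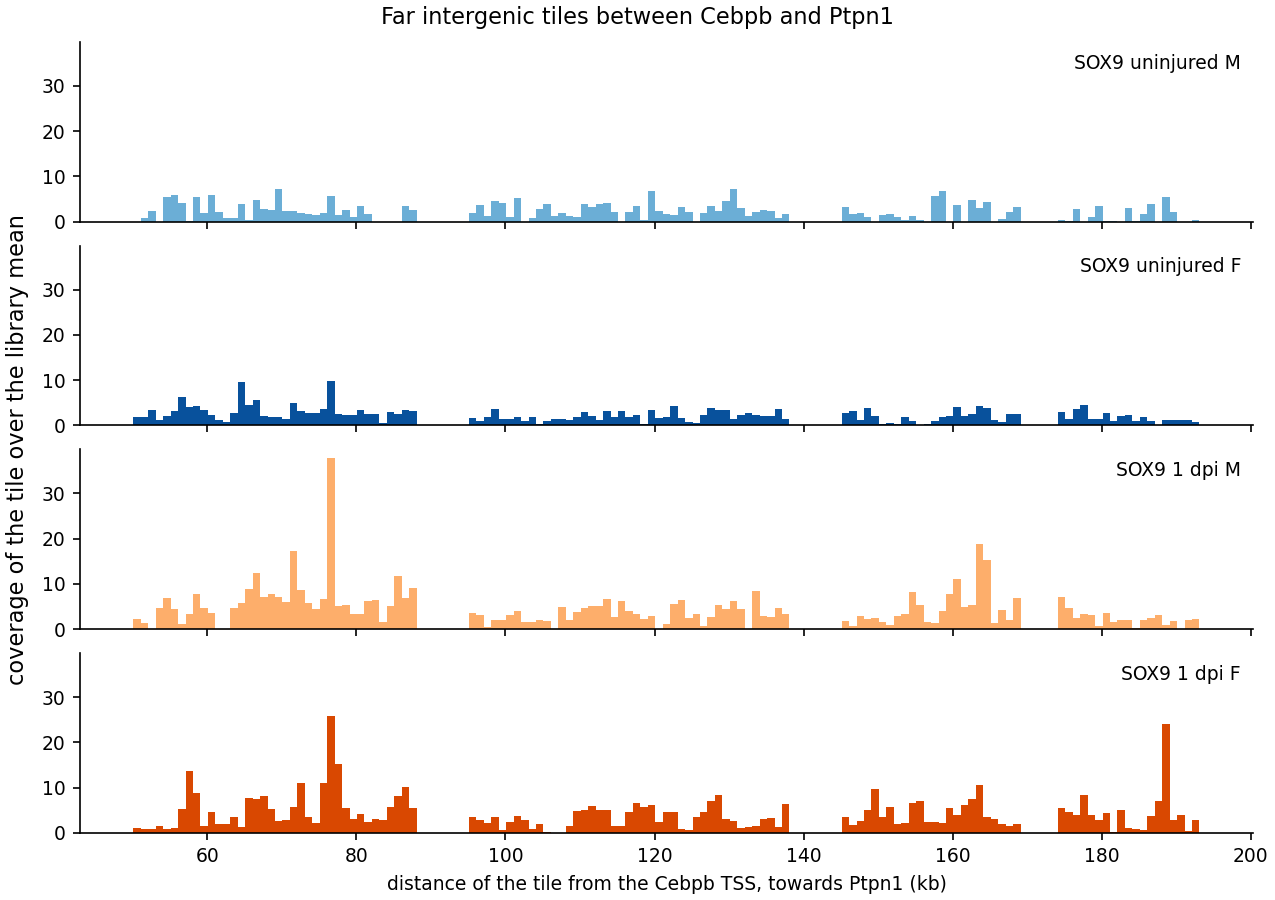
Level of each member tile between Cebpb and Ptpn1 in the 4 SOX9 libraries, by distance from the Cebpb TSS. Gaps are tiles that hold a gene or an assembly gap. Levels at 1 d.p.i. were higher along most of the interval, and the highest tile lay 76.6 kb after Cebpb.

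Other intervals, also chosen for a higher level at 1 d.p.i., showed the same kind of values. That choice fixes much of their counts of higher tiles. Between Irf2bp2 and Tomm20, 164 tiles had 3.16, 3.25, 5.38 and 5.09, and in 126 the 1 d.p.i. mean was higher. The highest, chr8:126666001-126667000, had 33.4, 45.6, 88.2 and 46.9. Between Zbtb40 and Wnt4, 112 tiles had 0.800, 0.878, 1.70 and 1.54, with 77 higher. After Trib1, 259 tiles had 1.02, 0.776, 1.43 and 1.69, with 175 higher, and between 1700020N01Rik and Sgk1 160 tiles had 1.13, 1.096, 2.53 and 1.91, with 111 higher. Between Tnfsf11, the gene of the cytokine RANKL, and Akap11, 114 tiles had 0.848, 0.875, 1.97 and 1.77, and neither gene's neighbourhood passed the test (limma adjusted p = 0.191 and 0.104). When tiles were instead grouped by the interval between coding genes, limma called 8 intervals higher and 1 lower, and this interval was among the higher ones (log2 change 0.86, adjusted p = 0.00616). The lower one, of 69 tiles between Rufy1 and Adamts2, had 2.138, 1.66, 1.16 and 1.19 (log2 change −0.64, limma adjusted p = 0.0287). The mean of the controls was 1.91 between Zbtb40 and Wnt4 and 1.502 after Trib1, above that of the SOX9 libraries (1.23 in both), and 3.597 against 4.22 between Irf2bp2 and Tomm20. In that last interval the controls stood at 1.44 and 2.803 uninjured and at 4.64 and 5.499 at 1 d.p.i., in the same direction as the SOX9 libraries. In the Kcnj2 to Sox9 desert, 601 of 1509 tiles had the higher mean at 1 d.p.i. There 45.1 to 67.7% of the tiles were empty in each SOX9 library, and a tile empty in all of them counts as not higher. The share over all member tiles is not given, so this count is no comparison for the other intervals.

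Markers of blood-borne and resident myeloid cells were looked at beside these results, with no test. Of 12 such genes, Ptprc, Itgam, Csf1r, Spi1, S100a8 and Cx3cr1 had both 1 d.p.i. libraries above both uninjured ones at their 5′ ends, that is 6 of 12, against 9.12% of all coding genes. Aif1 was below in both (3.13, 3.34, 0.954 and 2.09), and in Cd68, Lyz2, Cd14 and C5ar1 the conditions overlapped. Itgam stood at 0.352 and 0.194 uninjured and at 1.67 and 2.15 at 1 d.p.i. The summed level of the list was 19.4 and 23.2 uninjured and 26.4 and 20.95 at 1 d.p.i., and S100a9 was at 0 in every library. Gfap, the intermediate filament of reactive astrocytes, had 7.11, 4.70, 13.1 and 8.37, and Sox9 3.10, 2.65, 6.55 and 3.14. Of the other astrocyte markers Slc1a3 was below in both 1 d.p.i. libraries (2.75, 2.81, 1.62 and 1.60), and Aqp4, Aldh1l1 and Slc1a2 overlapped. Of the neuron markers Rbfox3 and Snap25 were below in both 1 d.p.i. libraries, 2 of 5, and of the oligodendrocyte markers Mog, 1 of 6, beside 14.4% of all coding genes. The part of myeloid cells in the neighbourhood results was not tested.

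A list of 18 injury response factors had 8 genes with a neighbourhood. Of these, 1 (Cebpb) passed the test, and in 4 of 8 (Cebpb, Bach2, Egr2 and Runx1) both 1 d.p.i. libraries were above both uninjured ones, beside 0.289% called higher and 10.0% with both above among all neighbourhoods. The median change of the list was 0.34 (log2), beside 0.07 over all neighbourhoods. The list was chosen with earlier results of these data known, so these values are a description. As above, the tally of higher neighbourhoods also depended on the uninjured F library. Runx1, a transcription factor of blood and reactive glia, had 0.738, 0.525, 0.815 and 1.18 over 333 tiles, and Bach2, an AP-1-related repressor, 0.640, 0.524, 0.695 and 0.909 over 85. Jun, a subunit of AP-1, had 0.620, 0.400, 0.519 and 0.750, Klf4 0.678, 0.339, 0.521 and 0.610, and Myc 0.398, 0.235, 0.319 and 0.421, where the conditions overlapped. Apart from Cebpb, each gene of the list had limma adjusted p = 1.00.

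Of 25 glial regulators 15 had a neighbourhood. None passed the test, 0 had an unadjusted p under 0.05 by limma, and in 1 of 15 (6.67%) both 1 d.p.i. libraries were above, shares near those of all neighbourhoods (0.289% and 10.0%). The median change was 0.04 (log2). The exception was Hes1, a Notch target, with 0.774, 0.575, 0.872 and 0.975. Sox9 itself had 0.470, 0.278, 0.438 and 0.474 over 921 tiles, and Sox2, Sox5 and Sox6, its relatives in neural progenitors and oligodendrocyte precursors, had 0.308 to 0.565, 0.220 to 0.419 and 0.478 to 0.759. In these 4 neighbourhoods the conditions overlapped.

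Set against what their GC content would give, the glial regulators had medians of 0.885, 0.722, 0.848 and 0.828, below those of all neighbourhoods in each library (0.950, 0.891, 0.910 and 0.942). Neighbourhoods of 31 olfactory and vomeronasal receptors were at 0.743, 0.446, 0.567 and 0.702, 22 cadherins at 0.879, 0.724, 0.816 and 0.831, and 38 zinc finger proteins at 0.978, 0.903, 0.863 and 0.943. The 8 injury response factors were at 0.934 and 0.946 uninjured and at 1.07 and 1.25 at 1 d.p.i. Glial members differed among themselves, with 3 of 15 above 1 in every SOX9 library, such as Zbtb20 at 1.08 to 1.67, and 8 of 15 below 1 in every one. These are 20% and 53.3%, beside 22.6% and 40.9% of all neighbourhoods. By this measure the highest floors were those of Gm21119, H60c and Irf2bp2, followed by Bdh1, Klf14, Ldlrad3 and Sorl1. Qk, an RNA-binding protein gene of glia, had 2.71 to 4.32 times its GC-matched level over 260 tiles, and Glul, the glutamine synthetase of astrocytes, 2.68 to 4.07 times over 74 tiles. The lowest included Scgb2b21, Scgb1b3 and Mrgpra3, genes of secretoglobins and of a sensory receptor, and Nkx6-1, a homeobox gene, at 0.350 to 0.503 times over 352 tiles. These ends of the ranking are a description with no test.

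Of 22 mouse enhancers cloned by the study, whose positions come from its primer table, 5 touched far intergenic tiles, 9 in all. They were IREN4, IREN7, IREN16, IREN18 and IREN19. None of the 9 tiles had a sum of at least 12, so none was tested. The tile of IREN4, 192.7 kb after the protease gene Adamts5, had 0.415, 0.269, 1.63 and 3.70, with both 1 d.p.i. libraries above both uninjured ones and every control at 0. A single fragment of 200 bp in a tile equals 1.03, 0.304, 0.742 and 0.783 in the SOX9 libraries, so the values of these tiles rest on few fragments. Of the IREN18 tiles, between Smim20 and the Notch effector gene Rbpj, the first had 0, 0.0852, 1.06 and 2.62 and the second 2.77, 1.23, 0 and 1.53. The remaining 6 tiles, of IREN7, IREN16 and IREN19, had 0 in at least 1 SOX9 library and at most 3.50 in any.

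Coverage was then averaged around 9 DNA words at their matches in far intergenic tiles, on both strands, as the ratio of the central 200 bp to the flanks from 800 to 1000 bp away. For 7 of them the same was done for the word with its letters reversed, which keeps the base composition. The SOX word AACAATG occurred 190531 times, in 21.1% of member tiles against 18.7% of all tiles. The AP-1 word TGACTCA was in 13.9% against 15.0%, and the E-box CAGCTG in 26.2% against 31.3%. The SOX pair was in 0.549% against 0.472%, and since both contain ACAAT, some SOX matches are part of a pair.

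At SOX words coverage was below the flanks, with ratios of 0.944, 0.952, 0.939 and 0.934, and it was lower still at the reversed letters, with 0.886, 0.834, 0.810 and 0.835. The difference of 0.101 had the same sign in 4 of 4 libraries (exact two-sided paired permutation p = 0.13, the smallest possible, adjusted p = 0.175 over 7 words). For the SOX pair, with 4437 matches, the ratios were 0.909, 0.948, 0.925 and 0.914 and the difference from the reversed letters 0.120 (exact p = 0.13, adjusted 0.175). At AP-1 words coverage was above the flanks, with 1.04, 1.14, 1.13 and 1.08 against 1.01 to 1.04 at the reversed letters, a difference of 0.0774 (exact p = 0.13, adjusted 0.175). The control ratios ranged from 0.859 to 1.00 at AP-1 words and from 0.890 to 0.965 at SOX words. At the reversed letters the controls had 0.909 to 1.08 for AP-1 and 0.760, 0.723, 0.558 and 0.899 for SOX, so that the controls too were lower there than at the SOX word, in 4 of 4.

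**Figure D5:**
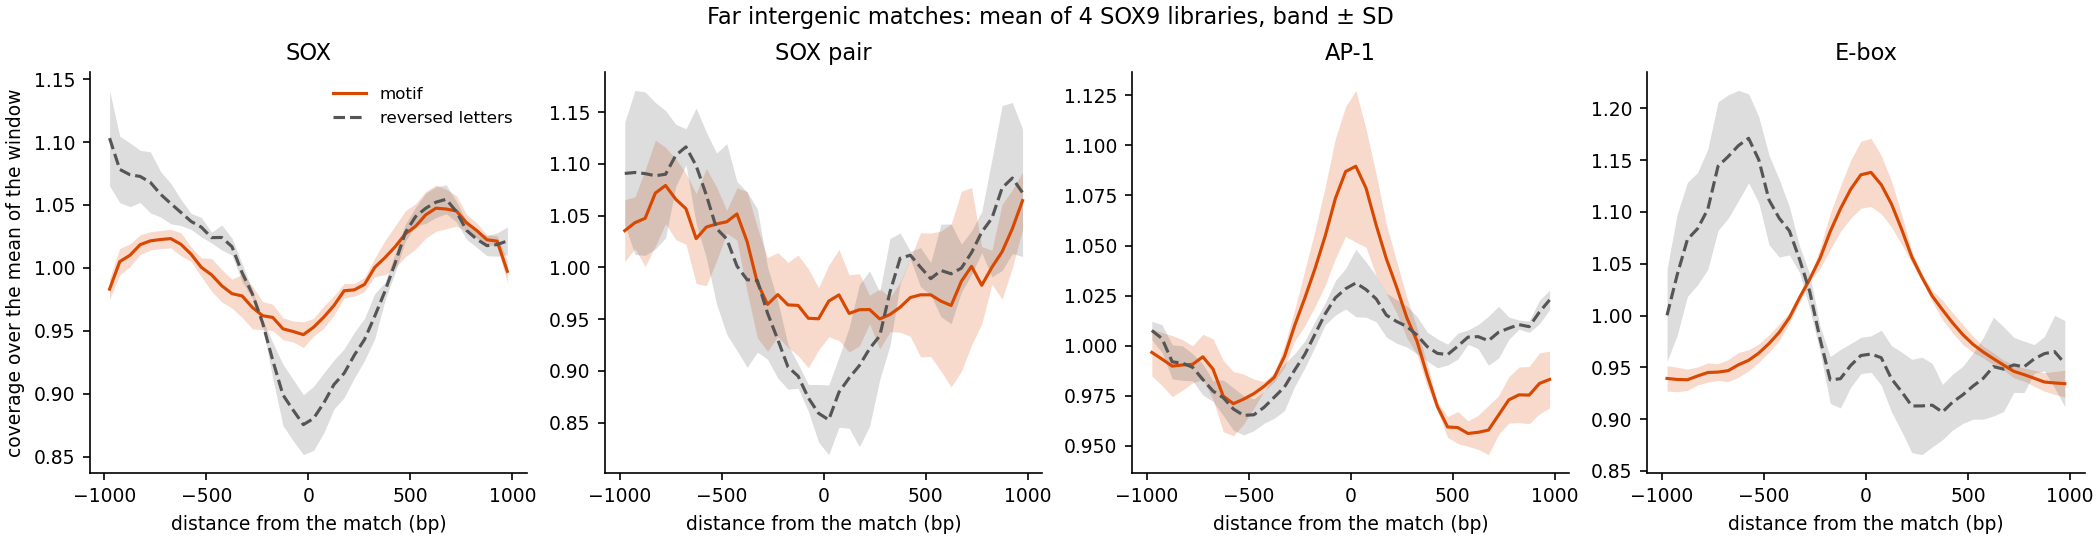
Coverage around matches of 4 DNA words in far intergenic tiles (solid) and of their reversed letters (dashed), over the mean of each window, as the mean of the 4 SOX9 libraries with a band of ± SD. Coverage at the SOX word and the SOX pair lay below the flanks but above that at the reversed letters, and that at the AP-1 word and the E-box lay above the flanks.

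The E-box had 1.16, 1.27, 1.21 and 1.18, which was 0.250 above its reversed letters (exact p = 0.13, adjusted 0.175), but the controls were as high at 1.202 to 1.255. For the CTCF word TAGGGGGC the difference from the reversed letters was 0.0577 (exact p = 0.13, adjusted 0.175), for the ETS word CCGGAAGT 0.0473 (exact p = 0.5, adjusted 0.583) and for the CRE word TGACGTCA −0.00774 (exact p = 1, adjusted 1). Reversing the letters of CRE, CTCF, ETS and E-box words makes or removes a CpG, so for these the comparison also sets CpG against non-CpG sequence. CTCF, ETS and CRE words were in 1.04%, 0.396% and 0.432% of member tiles, against 1.27%, 0.637% and 0.570% of all tiles. The paired words of NFI (TTGGC and GCCAA, 5 letters apart) and RFX (GTTGCC and GGCAAC, 0 to 3 letters apart) had 422 and 271 matches, in 0.0526% and 0.0338% of member tiles against 0.0627% and 0.0440% of all tiles, and too few reversed ones to compare.

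No difference between the conditions passed a test at any word. The change of the ratio at 1 d.p.i. was −0.0112 for SOX, −0.00899 for the SOX pair, 0.0188 for AP-1 and 0.0375 for CRE, and ranged from −0.0580 (NFI) to 0.0375 over the 9 words. Exact two-sided permutation tests gave p from 0.333 to 1, with an adjusted p of 1 for each, in a design that cannot go below 0.333. For AP-1 the ratio was 0.094 higher at 1 d.p.i. in M and 0.057 lower in F.

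Fragments under 120 bp are those expected from cuts close together, as in open DNA. Among fragments standing alone in far intergenic tiles they made up 18.0% and 22.8% in the uninjured libraries and 15.4% and 15.5% at 1 d.p.i. Both 1 d.p.i. values were below both uninjured ones, a difference of −4.93 percentage points (exact two-sided permutation p = 0.333, the smallest possible). It was −2.56 points without the uninjured F library, −7.29 without the uninjured M library and −3.24 over all rebuilt fragments. Deep intronic and TSS tiles differed the same way among fragments standing alone, by −6.08 and −6.10 points. In TSS tiles, however, only 12.18%, 1.19%, 5.145% and 7.349% of fragments stood alone. Over all rebuilt fragments the TSS shares were 12.09%, 4.456%, 7.685% and 7.739%, so the conditions overlapped. Deep intronic tiles kept the direction there, with 14.75%, 14.1%, 11.77% and 11.54%. Among fragments standing alone, the share within libraries was lower in member tiles than in TSS tiles by 6.17 points on average. This difference of −6.17 had an exact two-sided paired permutation p = 0.13, the smallest possible. Over all rebuilt fragments the share was instead higher in member tiles in each SOX9 library, at 15.3%, 16.05%, 12.27% and 12.61%. The direction thus depended on which fragments were read. The uninjured F library, with the shortest fragments, also had the fewest fragments standing alone in member tiles, 43.6% against 60.5 to 67.1%. The part of its depth in these differences was not tested.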

How the data were processed

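The authors mapped the reads to mm10 with Bowtie2 (2.5.4), removed duplicates with Picard (3.4.0) and called peaks with SEACR (1.3), per the submitters' notes and the study's methods. A filter on mapping quality is not given in the sources used here. The deposited file holds unscaled whole-number coverage of each library over stretches of the genome, so its unit is signal and not counts of reads. No peak list was used.

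Here the coverage was averaged in 1-kb tiles on 19 autosomes and divided by the mean over gap-free tiles. Genes came from GENCODE M21, and sequence, lower-case repeats and further genes from RefSeq (GRCm38). Each rise of the coverage counted as 1 fragment, and ends were read only from fragments standing alone. Single tiles (sum of at least 12 over the 4 SOX9 libraries, 0.5 added) and neighbourhoods (0.1 added, tile values limited to 20) entered limma 3.58.1 (R 4.3.3) with a mean-variance trend and Benjamini-Hochberg adjustment. The prior degrees of freedom came out infinite, so p-values rest on the spread shared by tiles of like level and not on that of a tile's own 4 libraries. Fold changes on these scales understate the change of low tiles. Other comparisons used exact two-sided permutation tests (scipy 1.17.1). The limma step was tested on simulated data. Python 3.11.15, numpy 2.4.6, pandas 2.3.3 and matplotlib 3.10.9 were used.

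Named tiles were the 6 highest in their lowest SOX9 library, the 4 with the widest gap between conditions in each direction, the 5 longest runs, tiles of cloned enhancers, the 3 highest with a SOX pair and with an AP-1 word, and those between Kcnj2 and Sox9, with at most 1 per 10 kb in the ranked sets. Of the first set, 2 tiles are not reported here. Tiles and neighbourhoods that passed limma, the intervals, the arrays and the ends of the ranking by GC-matched level were named after their values were seen. The members and lists were chosen with earlier results of these data known. M and F are different animals, 1 of each per group, so the permutation p-values measure the spread between these. The limma p-values rest instead on the spread shared by tiles or neighbourhoods of like level. Alternatives covered the distance limit, repeats, scaling, thinning to 1824332 fragments, filters, added values and leaving out each library.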

Additional observations from a re-analysis of the deposited data

Results flagged for a closer look

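Some values moved in opposite directions in M and F between the uninjured and the 1 d.p.i. libraries. There was 1 library of each letter in a condition, and the differences between M and F were not tested. The mean level of far intergenic tiles changed by −0.105 in M and by 0.141 in F. The ratio of coverage at a DNA word to its flanks changed by 0.0162 in M and −0.0342 in F for the SOX pair, by 0.094 and −0.057 for AP-1, and by 0.144 and −0.070 for CRE. It changed by −0.118 and 0.003 for NFI, by 0.267 and −0.201 for RFX, by 0.096 and −0.189 for ETS, and by 0.044 and −0.084 for the E-box.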

How the results depend on the processing

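The mean level at 1 d.p.i. against uninjured ranged from −0.0741 to 0.110 when each library was left out. The difference in the percentage of tiles at 10 times the mean was −0.000309 beyond 100 kb, −0.0205 at 5 times the mean, and −0.00318 to 0.0109 with a library left out. The difference from deep intronic tiles was −0.512 over all 8 libraries, where it passed the threshold that 4 pairs cannot reach. Those 8 are not independent, since most control fragments match a SOX9 fragment at both ends.

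The change of the ratio at 1 d.p.i. turned with the setting or the library left out for the words below, while for the SOX word it stayed negative (−0.0155 to −0.00685 with a library left out). For the SOX pair it was 0.0015 with a centre of 100 bp, 0.0149 with flanks nearer to the word and 0.00969 without lower-case sites. For NFI it was 0.0102 with the nearer flanks and 0.0749 without lower-case sites, for CTCF −0.0539 without lower-case sites, for RFX −0.00907 with the narrower centre and −0.00444 with the nearer flanks, and for ETS 0.00120 with capped coverage. With a library left out it ranged from −0.0285 to 0.0106 for the SOX pair, from −0.0320 to 0.0696 for AP-1, from −0.0990 to 0.174 for CRE, from −0.150 to 0.0340 for NFI, from −0.0192 to 0.0231 for CTCF, from −0.165 to 0.231 for RFX, from −0.125 to 0.0321 for ETS and from −0.0711 to 0.0305 for the E-box. Against reversed letters CRE was 0.115 without lower-case sites and −0.0526 to 0.0489 with a library left out, and ETS −0.0421 with capped coverage. The number of words higher at 1 d.p.i. was 4, and 1 to 7 with a library left out. The cause was not tested.

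The number of member tiles called was 6. It was 2 with 0.1 added, 1 with a sum of at least 4 or of at least 20, and 0 with scaling by a trimmed mean of log ratios, with no filter, with all 8 libraries, without the trend and with each library thinned, and 0 to 39 with a library left out. The number of neighbourhoods called was 7, 0 without the trend or with all 8 libraries and 4 to 61 with a library left out. The letters M and F do not pair the samples (correlation of deviations −0.0440), and a replicate block gave 0 tiles and 5 neighbourhoods. Pairing each SOX9 library with its control left the mean difference of 0.0469 without a call. Of 802803 members 5951 reached the sum of 12, and 6569 did with each library thinned.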
